A study of Arabidopsis thaliana with 24 samples.

Results

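Detached leaf blades of the Arabidopsis thaliana jasmonate-receptor mutant coi1 were compared 2 h after cutting and at the moment of cutting (t0). The comparison took every library that the coi1 expression table names 2h (replicates 1 and 2) or T0 (replicates 1 and 2), which is 4 of the 24 libraries analysed here, and all genes were eligible. Of 37686 loci in that table, 19323 reached at least 1 TPM in at least 2 of the 16 coi1 libraries and were tested. TPM is the share of a gene among all transcripts of a library, corrected for transcript length and scaled to the same total in every library. Both groups carried the coi1-2 allele, and both came from seedlings aged 12 d that had grown at 22 °C under 16 h of light and 8 h of darkness per day, on diluted MS medium containing sucrose at 1%. The first pair of rosette leaves was cut where blade meets petiole. The t0 blades were frozen at once, whereas the 2 h blades spent the interval on B5 medium without sucrose at 22 °C in constant light. Whole explants were frozen. Time since cutting, time of day, the change of medium and constant light therefore differ together between 2 h and t0 and cannot be told apart. The coi1 libraries at 1 h and 4 h, 2 each, and the wild-type (Col-0) libraries at 2 h and t0, 1 each, are given only beside these results. The p-values and standard errors rest on the spread between replicates pooled over all 8 coi1 times, not on the 2 h and t0 libraries alone. A gene even at 2 h and t0 can thus have a large standard error from other times, such as 30 min. The labels do not say that the replicates were separate cultures, so this spread may be technical.

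COI1 is the F-box protein of an E3 ubiquitin ligase that binds the hormone jasmonoyl-isoleucine together with a JAZ repressor. The JAZ protein is then destroyed, and MYC transcription factors that it held in check switch on jasmonate genes, among them the genes of jasmonate synthesis and the JAZ genes themselves. In coi1 mutants this perception is lost or impaired. A detached leaf loses its exchange of sugar with the plant, and in light its own photosynthate can build up in it. Sugar level, light and the circadian clock each set the transcript levels of many leaf genes, and clock genes peak at set times of day: CCA1 and its relatives around dawn, TOC1 and the evening complex around dusk.

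Promoters of 6 genes called higher or lower at 2 h are shown. Clock and sugar-responsive genes are known for short sequence words to which their regulators bind. Each of the 6 calls depended on which libraries were kept, as given with the genes below. Each promoter is the 300 bases that precede the RefSeq gene start (TAIR10.1), written 5′ to 3′ on the gene's own strand. CCA1 and PRR9, dawn and morning clock genes that were higher at 2 h, and TOC1 and BOA, evening clock genes that were lower, are shown with the G-box CACGTG and the evening element core AAATATCT in capitals, on either strand. CCA1 lies at chr2:19245291-19245590 (plus strand), PRR9 at chr2:19232307-19232606 (plus), TOC1 at chr5:24674663-24674962 (plus) and BOA at chr5:24003588-24003887 (plus).
CCA1: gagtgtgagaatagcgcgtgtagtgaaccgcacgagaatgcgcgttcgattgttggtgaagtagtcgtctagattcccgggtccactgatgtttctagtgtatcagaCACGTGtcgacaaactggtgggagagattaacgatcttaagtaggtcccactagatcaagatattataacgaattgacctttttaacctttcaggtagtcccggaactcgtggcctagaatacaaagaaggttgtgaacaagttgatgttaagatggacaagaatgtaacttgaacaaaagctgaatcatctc
PRR9: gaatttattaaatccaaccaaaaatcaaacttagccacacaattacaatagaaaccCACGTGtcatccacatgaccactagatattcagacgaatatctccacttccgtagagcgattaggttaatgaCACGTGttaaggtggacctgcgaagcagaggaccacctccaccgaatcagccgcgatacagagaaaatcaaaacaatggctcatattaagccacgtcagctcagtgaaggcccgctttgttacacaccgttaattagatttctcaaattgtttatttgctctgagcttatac
TOC1: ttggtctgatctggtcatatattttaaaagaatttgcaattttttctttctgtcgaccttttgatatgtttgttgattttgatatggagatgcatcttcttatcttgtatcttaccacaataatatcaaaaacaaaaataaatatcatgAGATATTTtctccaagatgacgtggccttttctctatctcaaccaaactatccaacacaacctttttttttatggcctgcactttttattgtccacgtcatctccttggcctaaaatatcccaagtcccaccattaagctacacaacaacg
BOA: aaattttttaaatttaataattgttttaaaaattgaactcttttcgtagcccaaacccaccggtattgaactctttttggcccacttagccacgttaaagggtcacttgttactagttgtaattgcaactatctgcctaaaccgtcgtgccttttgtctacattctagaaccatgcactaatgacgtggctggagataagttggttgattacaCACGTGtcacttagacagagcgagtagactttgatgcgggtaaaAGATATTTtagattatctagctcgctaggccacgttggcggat
AT2G33830 and DYL1, a pair of dormancy-associated protein genes that marked the sugar-starvation list and were lower at 2 h, are shown with the I-box GATAAG and the TATCCA box in capitals, again on either strand. AT2G33830 lies at chr2:14310609-14310908 (minus) and DYL1 at chr1:9935441-9935740 (minus).
AT2G33830: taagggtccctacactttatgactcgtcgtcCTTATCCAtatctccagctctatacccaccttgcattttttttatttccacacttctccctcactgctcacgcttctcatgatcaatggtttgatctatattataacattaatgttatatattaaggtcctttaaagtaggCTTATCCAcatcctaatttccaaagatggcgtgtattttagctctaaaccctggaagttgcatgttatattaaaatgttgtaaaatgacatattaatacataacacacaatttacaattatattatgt
DYL1: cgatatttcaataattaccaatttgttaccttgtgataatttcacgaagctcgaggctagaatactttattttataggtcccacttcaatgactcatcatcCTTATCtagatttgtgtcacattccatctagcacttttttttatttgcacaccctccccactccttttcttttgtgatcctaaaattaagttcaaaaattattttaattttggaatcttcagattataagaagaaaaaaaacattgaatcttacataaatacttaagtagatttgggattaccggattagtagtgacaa

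The G-box stood 193 bases before the start of CCA1 and 244 and 172 bases before the start of PRR9. The evening element core stood 151 bases before TOC1 and 43 bases before BOA, and BOA also had a G-box at 87 bases. AT2G33830 had I-boxes at 269 and 128 bases and TATCCA boxes at 267 and 126 bases, each pair overlapping, because the reverse of the I-box, CTTATC, runs into TATCCA in CTTATCCA. DYL1 had 1 I-box, at 199 bases. Among the lists, a G-box was found in 7 of 14 morning clock promoters, the evening element core in 6 of 13 evening clock promoters and an I-box in 11 of 24 starvation promoters. The G-box was also in 6 of 21 flavonoid, 5 of 18 starch synthesis, 5 of 20 antenna and 1 of 23 light signalling promoters. The evening element core was also in 4 of 18 starch synthesis promoters and 1 of 14 morning clock promoters. Within the morning list, RVE2, which fell, had a G-box, while LNK1, LNK2, LNK4 and RVE7, which rose, had none. Over all promoters of this length, 8.13% held the G-box, 5.99% the evening element core, 14.6% the I-box and 16.9% TATCCA (18073 protein-coding genes tested). The I-box was in 13% of the promoters of the genes called higher at 2 h and 19.1% of those called lower, and TATCCA was in 15% and 22.3% (2466 and 2305 promoters). The G-box was in 8.96% and 6.59%, and the evening element core in 7.54% and 5.47%. A further 3 words, searched on both strands as all were, were the telo box AAACCCTA, in 3.2% of the higher, 4.6% of the lower and 4.39% of all promoters, the site II word GGCCCA, in 12.8%, 19.8% and 18.3%, and the drought-responsive core CCGAC, in 429 of 2466 higher, 316 of 2305 lower and 2762 of all promoters (15.3%). No searched word contains another, and a match describes the letters only.

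The libraries within a group were not alike. Among the genes tested, 1435 were at least 2-fold higher in t0 replicate 1 than in t0 replicate 2 and 234 the other way round, while at 2 h the counts were 313 and 311 (root mean square difference between replicates on the log2 scale, 0.436 at 2 h and 0.697 at t0; 0.318 to 0.502 at the other times except 30 min, at 1.05). The 4 libraries had 17545, 17532, 17743 and 17348 genes at 1 TPM or more (2 h replicates 1 and 2, then t0 replicates 1 and 2). TPM values carry no sequencing depth, so no counting interval can be given. COI1 itself (AT2G39940), the receptor gene that carries the coi1-2 allele, had 17.5 and 15.7 TPM at 2 h, against 14.5 and 14.3 TPM at t0 (log2 difference 0.19 ± 0.11, where ± is the standard error of the fit, adjusted p = 0.248 in limma), and 25.9 TPM at 2 h and 15.4 TPM at t0 in wild type. The labels do not say how the allele alters the transcript, so this level does not check the genotype.

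Genes that plants switch on within minutes of touch or wounding differed between the t0 replicates. Of 28 wound and stress transcription factors tested, 20 were at least 2-fold higher in t0 replicate 1 than in t0 replicate 2 and 0 the reverse; the list summed to 208 and 186 TPM at 2 h, against 905 and 81.3 TPM at t0. TCH3, a calmodulin-like protein gene induced by touch, had 77.2 and 63.8 TPM at 2 h, against 1393 and 17.2 TPM at t0. TCH4, a touch-induced xyloglucan endotransglucosylase, had 44.8 and 57.0 TPM at 2 h, against 578 and 4.37 TPM at t0. In both, the 2 h blades lay between the t0 replicates. WRKY33, a defence transcription factor, had 8.00 and 10.4 TPM at 2 h, against 140.0 and 6.04 TPM at t0, and ERF105, a stress-induced ethylene response factor, was listed at 0 in every one of these libraries but t0 replicate 1, at 53.4 TPM. With all libraries, 3 of the 28 rose and 0 fell, with a median log2 difference of -0.48; beside ZAT11 these were WRKY48 (adjusted p = 0.129 without 2 h replicate 1, 0.0696 without 2 h replicate 2 and 0.13 without t0 replicate 2) and ERF115 (0.1 to 0.166 with each library left out in turn). Leaving out either 2 h library gave 1 rise. Without t0 replicate 1 the counts were 6 and 0, with a median of 0.61. Without t0 replicate 2 they were 1 and 13, with a median of -2.01. The 7 touch and calmodulin-like genes tested gave 0 rises and 1 fall (CML23; adjusted p = 0.151 without 2 h replicate 1, 0.0915 without 2 h replicate 2 and 0.173 without t0 replicate 1), 4 rises and 0 falls without t0 replicate 1, and 0 rises and 4 falls without t0 replicate 2. The direction of these lists at 2 h therefore depended on which t0 library was kept. ZAT11, a zinc-finger repressor, had 6.75 and 6.80 TPM at 2 h, against 1.00 and 0.05 TPM at t0 (log2 2.42 ± 0.49, adjusted p = 0.00582, 0.0091 to 0.0452 with 1 library left out), above both t0 libraries.

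**Figure D1:**
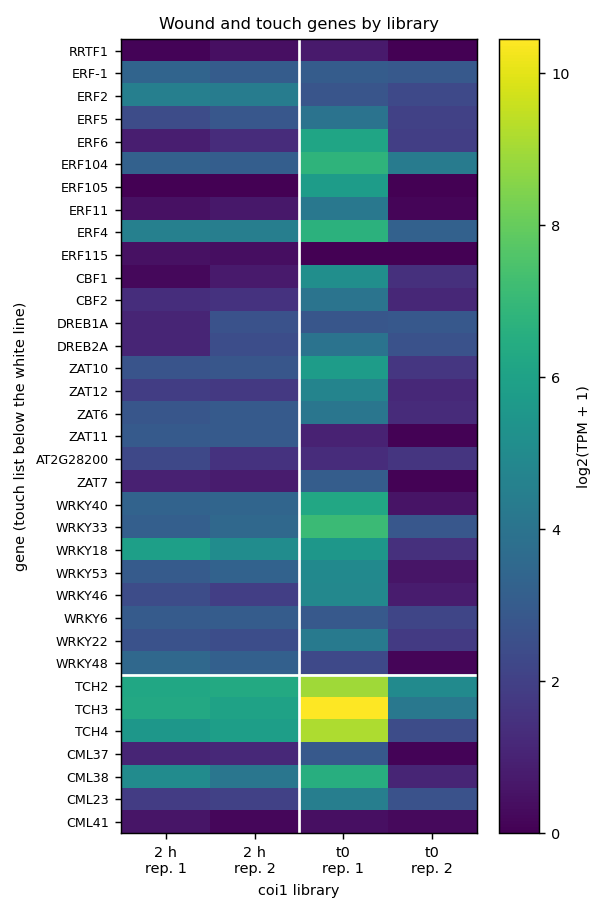
Heat map of wound, stress and touch genes (rows, log2(TPM + 1)) in the 2 coi1 libraries at 2 h and the 2 at t0 (columns); the vertical white line separates 2 h and t0, and the touch genes are below the horizontal one. Replicate 1 at t0 stands out, with TCH3 at 1393 TPM against 17.2 TPM in replicate 2, while the 2 h libraries resemble each other.

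Markers of leaf cell types were read in the same libraries. The 5 mesophyll markers summed to 59047 and 58839 TPM at 2 h, against 53821 and 57938 TPM at t0, and 0 of them changed in limma, with 1 at an unadjusted p under 0.05. The 10 vascular markers summed to 247 and 199 TPM at 2 h, against 259 and 254 TPM at t0, and 0 changed, with 2 at an unadjusted p under 0.05. Of 8 guard cell markers, 4 rose and 0 fell: KAT1 and KAT2 (potassium channels), HT1 (a kinase of carbon dioxide signalling) and SLAC1 (the anion channel of stomatal closure). KAT2 had 10.4 and 10.8 TPM at 2 h, against 5.90 and 5.87 TPM at t0 (log2 0.75 ± 0.14, adjusted p = 0.00305, 0.0171 to 0.0236 with 1 library left out), and the adjusted p of KAT1 was 0.0812 without 2 h replicate 1, 0.117 without 2 h replicate 2 and 0.157 without t0 replicate 1. That of SLAC1 was 0.198 without 2 h replicate 1, 0.0881 without 2 h replicate 2 and 0.229 without t0 replicate 1. That of HT1 was 0.0624 to 0.271 with each library left out in turn. The guard cell list had 1 to 3 rises over the 4 fits, and 1 fall without 2 h replicate 2. Its sum ran the other way, at 2176 and 3231 TPM at 2 h and 3621 and 4221 TPM at t0, and TGG1, a myrosinase of guard and myrosin cells, made up most of it at 1796 and 2741 TPM at 2 h and 3110.4 and 3621 TPM at t0. Of 5 epidermis markers, 2 rose: LTP1, a lipid transfer protein gene (adjusted p = 0.067 without 2 h replicate 1 and 0.053 without t0 replicate 1), and ATML1, a regulator of epidermal identity (adjusted p = 0.0527 to 0.116 with each library left out in turn). Without any 1 library the list had at most 1 rise, and the sum was 1939 and 1795 TPM at 2 h, against 944 and 1012 TPM at t0. Trichome markers summed to at most 2.46 TPM. Of 6 root markers, 3 were at 0 in all 4 libraries, and both that could be tested fell, CASP1 from the root endodermis, with 0.04 and 0.18 TPM at 2 h, against 0.86 and 0.81 TPM at t0 (adjusted p = 0.126 without 2 h replicate 1, 0.0792 without t0 replicate 1 and 0.067 without t0 replicate 2), and BGLU23, a beta-glucosidase of endoplasmic reticulum bodies, with 7.94 and 11.2 TPM at 2 h, against 21.9 and 19.4 TPM at t0; shoot meristem markers reached at most 0.04 TPM. In whole blades, a change in the number of cells of a type and a change in RNA per cell cannot be told apart, and the part of these shifts in the results that follow was not tested.

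At 2 h, 2552 genes had risen (13.2% of the 19323 tested) and 2389 had fallen (12.4%) relative to t0, or 25.6% in all (limma, Benjamini-Hochberg adjusted p under 0.05). At an unadjusted p under 0.05 the share was 37.9%. The 2 h and t0 libraries did not overlap in 13143 genes (68%). Among the called genes, 407 rose and 254 fell by at least 4-fold, and 122 rose and 65 fell by at least 8-fold, on the log2(TPM + 1) scale, which understates the change of genes with low levels. The median log2 difference over all genes tested was 0.003. With 1 library left out, the called genes still called were 2186 of 4941 (44.2%) without 2 h replicate 1, 3044 (61.6%) without 2 h replicate 2, 3087 (62.5%) without t0 replicate 1 and 2812 (56.9%) without t0 replicate 2. In all 4 such fits, 1926 kept their call (39%), of which 1028 rose and 898 fell. For named genes, the lowest and highest adjusted p over those 4 fits follow the adjusted p where they bear on the call.

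The 2 largest rises were in genes of starch synthesis. GPT2, which carries glucose 6-phosphate into plastids, had 152 and 147 TPM at 2 h, against 1.18 and 0.23 TPM at t0 (log2 6.52 ± 0.38, adjusted p = 1.04e-05, 7.13e-05 to 0.000292 with 1 library left out). GBSS1, the granule-bound synthase that makes amylose, had 340.5 and 148 TPM at 2 h, against 2.57 and 0.71 TPM at t0 (log2 6.51 ± 1.5, adjusted p = 0.0106); its replicates differed by more than 2-fold at both times, and its call ended without 2 h replicate 1 (adjusted p = 0.0795) or t0 replicate 2 (0.0588). PRN, a pirin that binds heterotrimeric G protein, had 78.9 and 62.1 TPM at 2 h, against 0.43 and 0.10 TPM at t0 (log2 5.82 ± 0.28, adjusted p = 4.64e-06). RNS1, a secreted ribonuclease known from phosphate starvation and wounding, had 50.4 and 32.2 TPM at 2 h, against 0 and 0.04 TPM at t0 (log2 5.34 ± 0.23, adjusted p = 2.19e-06). The groups lay far apart in all 4 genes.

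The other leaders on the higher side were AT2G43620, of the chitinase family, with 247 and 130.1 TPM at 2 h, against 3.29 and 0.62 TPM at t0, and AT3G46280, annotated as kinase-like, with 56.2 and 37.0 TPM at 2 h, against 0.46 and 0.04 TPM at t0. XTH24, a xyloglucan endotransglucosylase, had 273 and 169 TPM at 2 h, against 7.29 and 1.99 TPM at t0 (log2 5.44 ± 0.97, adjusted p = 0.00295). CIPK20, a protein kinase that partners calcium sensors, had 110.5 and 75.5 TPM at 2 h, against 0.88 and 2.25 TPM at t0 (log2 5.22 ± 1.07, adjusted p = 0.00587), and its 1 wild-type library per time had 0.02 TPM at 2 h and 0.11 TPM at t0. These calls held in all 4 fits that left out 1 library. LEA3, a late embryogenesis abundant protein gene, had 97.4 and 83.9 TPM at 2 h, against 1.73 and 0.78 TPM at t0, and BETA-OHASE 2, a carotenoid hydroxylase, had 65.4 and 48.1 TPM at 2 h, against 0.78 and 0.31 TPM at t0. The LEA3 call ended without 2 h replicate 1 (adjusted p = 0.0698) or t0 replicate 2 (0.0592), and that of BETA-OHASE 2 ended in each of the 4 fits (adjusted p 0.0509 to 0.0895). CCA1 and LNK4 completed the 12 and are described with the clock.

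The 12 largest falls were led by AT2G33830, whose promoter is printed above. It had 2.76 and 6.43 TPM at 2 h, against 756 and 847 TPM at t0 (log2 -7.24 ± 1.51, adjusted p = 0.00657; 0.0534 without 2 h replicate 1). GASA6, a gibberellin-regulated small cysteine-rich protein gene, had 14.9 and 10.4 TPM at 2 h, against 519 and 648 TPM at t0 (log2 -5.43 ± 0.22, adjusted p = 1.82e-06), the smallest adjusted p among the leaders. EXPA8, an expansin that loosens cell walls, had 0.81 and 0.85 TPM at 2 h, against 57.9 and 154 TPM at t0 (log2 -5.70 ± 0.38, adjusted p = 1.62e-05). Both GASA6 and EXPA8 were at similar levels in the 2 h replicates and kept their calls with any library left out. BT2, a BTB and TAZ domain protein known to be repressed by sugar and nitrate-responsive, had 1.32 and 3.86 TPM at 2 h, against 135 and 233 TPM at t0 (log2 -5.73 ± 0.75, adjusted p = 0.000556). RVE2, a relative of CCA1, had 0.73 and 0.59 TPM at 2 h, against 53.2 and 119 TPM at t0 (log2 -5.61 ± 0.67, adjusted p = 0.000339). AT3G28290 and AT3G28300, membrane protein genes that are a near-identical pair and are listed with identical values, so their separate levels are uncertain, had 0.25 and 0.48 TPM at 2 h, against 49.3 and 75.6 TPM at t0.

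The remaining leaders on the lower side were less even between the 2 h replicates. GER3, a germin-like protein gene, had 18.3 and 567 TPM at 2 h, against 3573 and 5544 TPM at t0 (log2 -5.41 ± 1.64, adjusted p = 0.0355), a gap of more than 10-fold within the 2 h pair. JMJD5, a histone demethylase family gene linked to the clock, had 0.72 and 2.52 TPM at 2 h, against 108 and 114 TPM at t0. DYL1 had 5.39 and 21.4 TPM at 2 h, against 390.1 and 644 TPM at t0. PCC1, a small gene named for its response to pathogens and to the clock, had 5.44 and 28.9 TPM at 2 h, against 616 and 495 TPM at t0. AT3G62550 had 1.64 and 11.3 TPM at 2 h, against 147 and 364 TPM at t0. All 5 were far below t0 in both 2 h libraries and higher in 2 h replicate 2 than in 2 h replicate 1. Without 2 h replicate 1, each of these calls ended, with adjusted p of 0.276 for GER3, 0.0812 for JMJD5, 0.0653 for DYL1, 0.141 for PCC1 and 0.107 for AT3G62550. GER3 (0.0912 and 0.126) and PCC1 (0.0731 and 0.0612) also lost their calls without t0 replicate 1 and without t0 replicate 2, and AT3G62550 without t0 replicate 2 (0.0707).

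**Figure D2:**
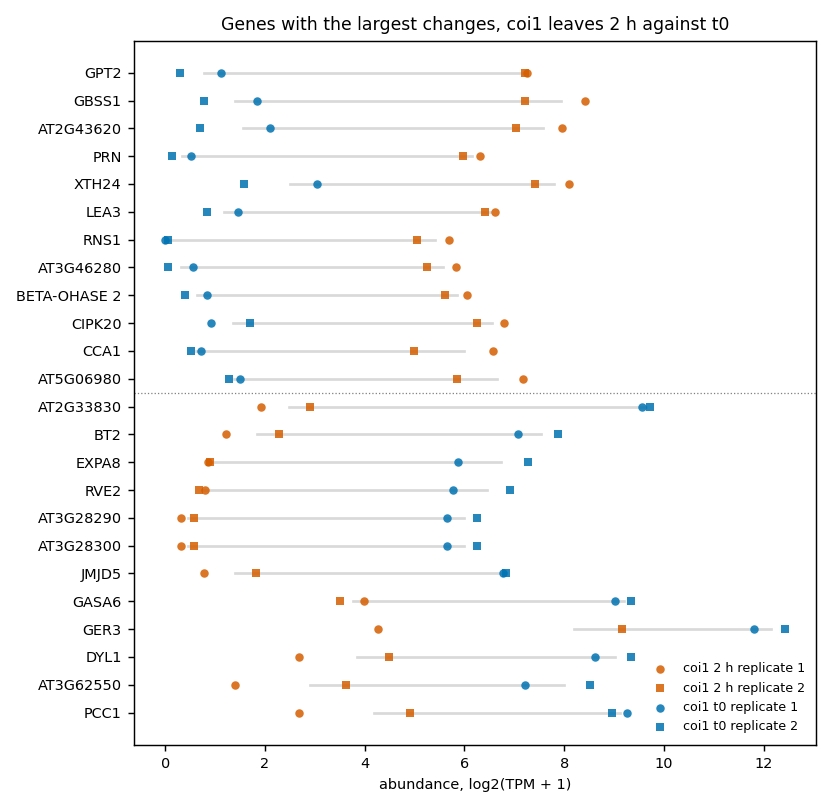
Levels of the genes with the largest called differences, as log2(TPM + 1) in each coi1 library at 2 h and at t0 (points); grey lines join the group means, the dotted line separates higher genes (above) and lower genes, and AT5G06980 is LNK4. The groups of every gene shown lie apart, and the 2 h points spread most for GER3, at 18.3 and 567 TPM.

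**Figure D3:**
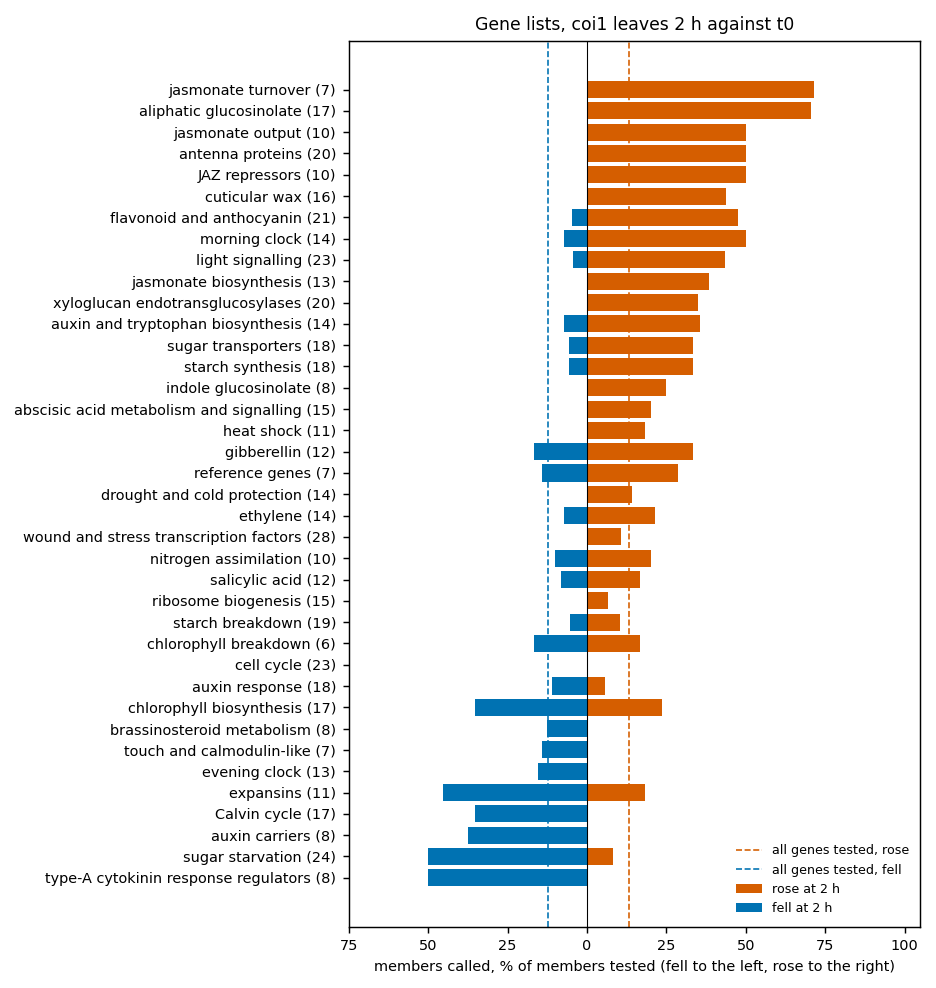
Percent of tested members of each gene list that rose (to the right) or fell (to the left) at 2 h relative to t0; dashed lines mark the share over all genes tested, 13.2% higher and 12.4% lower. The number of members tested is in brackets. Jasmonate turnover, with 5 of 7 members, and aliphatic glucosinolates, with 12 of 17, have the longest bars to the right. The 5 include ST2A, which passed the filter only with 2 h replicate 2.

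The starch synthesis list was mixed: 6 of 18 members rose, 1 fell, and the median log2 difference was 0.03. Beside GPT2 and GBSS1, the rises were in APL3 and APL4 (large subunits of ADP-glucose pyrophosphorylase), SS2 (a starch synthase) and SBE2.2 (a branching enzyme). APL3 had 63.5 and 47.6 TPM at 2 h, against 16.2 and 15.7 TPM at t0 (log2 1.73 ± 0.36, adjusted p = 0.00615; 0.0578 without 2 h replicate 1). SS2 had 45.6 and 43.4 TPM at 2 h, against 9.65 and 12.0 TPM at t0 (log2 1.95 ± 0.39, adjusted p = 0.00511). The SS2 libraries were about 4-fold apart between the times. The abundant subunits did not pass the test: APL1 had 373 and 392 TPM at 2 h, against 355 and 365 TPM at t0. ADG1, the catalytic subunit, had 405 and 481 TPM at 2 h, against 434 and 439 TPM at t0. SS3, a further starch synthase, was the 1 member that fell (log2 -0.36 ± 0.12, adjusted p = 0.0459, 0.0899 to 0.243 with each library left out in turn), while APL4, SS2, SBE2.2 and GPT2 kept their calls. Of 19 genes of starch breakdown, 2 rose and 1 fell (median -0.30). BAM5, a beta-amylase outside the plastid, had 4.86 and 8.97 TPM at 2 h, against 0.19 and 0.05 TPM at t0 (log2 2.77 ± 0.27, adjusted p = 0.000111).

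Sugar transporter genes included 6 rises and 1 fall among 18 tested (median 0.31). SWEET13, a sucrose exporter, had 42.3 and 23.0 TPM at 2 h, against 0.84 and 0.81 TPM at t0 (log2 4.14 ± 0.37, adjusted p = 6.83e-05). SWEET17, a fructose carrier of the vacuole membrane, had 51.4 and 45.1 TPM at 2 h, against 2.68 and 4.35 TPM at t0 (log2 3.47 ± 0.30, adjusted p = 6.02e-05). STP4, a monosaccharide importer, had 69.3 and 59.1 TPM at 2 h, against 19.2 and 20.7 TPM at t0 (log2 1.63 ± 0.29, adjusted p = 0.00268). These 3 kept their calls in every fit that left out 1 library. SUC1 (sucrose importer; adjusted p = 0.115 without 2 h replicate 1 and 0.0838 without t0 replicate 2), SWEET1 (glucose exporter; 0.0532 to 0.114 with each library left out in turn) and TMT2 (vacuolar importer; 0.174 without 2 h replicate 2, 0.101 without t0 replicate 1 and 0.0692 without t0 replicate 2) also rose with all libraries, and STP14, a galactose importer, fell to 2.48 and 5.01 TPM at 2 h, against 11.1 and 18.4 TPM at t0 (adjusted p = 0.0769 without 2 h replicate 1 and 0.0575 without t0 replicate 2). Leaving out t0 replicate 2 gave 3 rises and 0 falls, and leaving out 2 h replicate 1, 2 h replicate 2 or t0 replicate 1 gave 4 rises with 0, 2 or 1 falls.

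Genes known to be switched on by sugar starvation or darkness stood lower at 2 h. Of 24 tested, 12 fell and 2 rose, with a median log2 difference of -1.13 against 0.003 over all genes. The list summed to 253 and 172 TPM at 2 h, against 1652 and 2004 TPM at t0. Most of the t0 sum came from AT2G33830, DYL1 and BT2, whose levels are given above. DIN10, a raffinose synthase family gene, had 9.73 and 10.97 TPM at 2 h, against 69.8 and 63.2 TPM at t0 (log2 -2.57 ± 0.35, adjusted p = 0.000637). TPS9, a trehalose phosphate synthase homologue, had 0.57 and 0.63 TPM at 2 h, against 11.6 and 6.66 TPM at t0 (log2 -2.62 ± 0.24, adjusted p = 7.79e-05). AKINBETA1, a subunit of the energy-sensing kinase SnRK1, had 3.22 and 2.03 TPM at 2 h, against 17.0 and 20.5 TPM at t0 (log2 -2.46 ± 0.28, adjusted p = 0.000259). All 3 were several fold lower in both 2 h libraries.

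bZIP1, a transcription factor of the starvation response, had 2.21 and 2.44 TPM at 2 h, against 12.0 and 18.9 TPM at t0 (log2 -2.28 ± 0.24, adjusted p = 0.000157). MCCA, which breaks down leucine, had 1.80 and 1.36 TPM at 2 h, against 13.5 and 10.2 TPM at t0. BGAL4, a beta-galactosidase, had 0.29 and 0.31 TPM at 2 h, against 4.18 and 4.99 TPM at t0. DIN3 and DIN4, subunits of the branched-chain keto acid dehydrogenase, and TPS11 fell too (DIN4, adjusted p = 0.122 without 2 h replicate 1, 0.0594 without t0 replicate 1 and 0.0719 without t0 replicate 2; TPS11, 0.0737 without 2 h replicate 2 and 0.0773 without t0 replicate 1), beside AT2G33830, DYL1 and BT2. ASN1 (DIN6), the asparagine synthetase commonly used as the marker of this response, did not pass the test, at 1.95 and 1.59 TPM at 2 h, against 6.33 and 2.25 TPM at t0. The 2 members that rose were ERD5, a proline dehydrogenase, with 80.2 and 23.9 TPM at 2 h, against 10.0 and 9.59 TPM at t0, and PPDK, pyruvate orthophosphate dikinase, with 37.4 and 9.26 TPM at 2 h, against 1.61 and 1.37 TPM at t0; both were more than 3-fold higher in 2 h replicate 1 than in replicate 2. The adjusted p of ERD5 was 0.289 without 2 h replicate 1, 0.112 without t0 replicate 1 and 0.12 without t0 replicate 2. That of PPDK was 0.243 without 2 h replicate 1, 0.0982 without t0 replicate 1 and 0.111 without t0 replicate 2. The list had 9 falls and 0 rises without 2 h replicate 1, 11 and 2 without 2 h replicate 2, 10 and 0 without t0 replicate 1, and 11 and 0 without t0 replicate 2. In all 4 fits, 8 falls were kept.

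Clock genes had wide replicate gaps at 2 h. Of 14 morning clock genes, 7 rose and 1 fell (median 2.64), and of 13 evening clock genes, 0 rose and 2 fell (median -1.21, or -0.14 without 2 h replicate 1), beside 12.4% lower over all genes. CCA1, a MYB-like repressor at the core of the clock, had 94.4 and 30.9 TPM at 2 h, against 0.64 and 0.43 TPM at t0 (log2 5.17 ± 1.55, adjusted p = 0.034, 0.0681 to 0.189 with 1 library left out). LHY, its partner, did not pass the test, at 17.57 and 2.07 TPM at 2 h, against 0.30 and 0.31 TPM at t0 (adjusted p = 0.32). Other members were more even between replicates: PRR7, a pseudo-response regulator, had 96.3 and 126 TPM at 2 h, against 23.2 and 34.2 TPM at t0 (log2 1.93 ± 0.41, adjusted p = 0.00697). LNK1, a coactivator of the clock's REVEILLE factors, had 77.4 and 57.8 TPM at 2 h, against 9.02 and 10.7 TPM at t0 (log2 2.65 ± 0.49, adjusted p = 0.00359). PRR7, LNK1 and RVE2 were the 3 whose calls held in all 4 fits leaving out 1 library.

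PRR9, the first pseudo-response regulator of the day, had 57.3 and 16.2 TPM at 2 h, against 0.32 and 0.38 TPM at t0 (log2 4.55 ± 1.18, adjusted p = 0.0185). LNK2 had 215 and 113 TPM at 2 h, against 8.06 and 10.2 TPM at t0. LNK4 had 143 and 56.6 TPM at 2 h, against 1.81 and 1.42 TPM at t0 (log2 5.13 ± 1.18, adjusted p = 0.0104). In each, 2 h replicate 1 was well above replicate 2 and both were above t0. The adjusted p of PRR9 was 0.14 without 2 h replicate 1, 0.0691 without t0 replicate 1 and 0.0672 without t0 replicate 2. That of LNK2 was 0.0702 to 0.163 with each library left out in turn and that of LNK4 was 0.0849 without 2 h replicate 1. RVE7, a relative of CCA1, rose too (adjusted p = 0.106 without 2 h replicate 1 and 0.0942 without t0 replicate 1). The morning list had 2 rises and 1 fall without 2 h replicate 1, and its rises numbered 5 without 2 h replicate 2, 3 without t0 replicate 1 and 4 without t0 replicate 2. On the evening side, TOC1, a pseudo-response regulator that represses CCA1, had 5.13 and 20.5 TPM at 2 h, against 114 and 100.01 TPM at t0 (log2 -3.23 ± 0.97, adjusted p = 0.0347). BOA, a relative of the evening complex factor LUX, had 0.12 and 0.41 TPM at 2 h, against 25.9 and 11.6 TPM at t0 (log2 -3.87 ± 1.22, adjusted p = 0.0409). The adjusted p of TOC1 was 0.235 without 2 h replicate 1, 0.116 without t0 replicate 1 and 0.098 without t0 replicate 2. That of BOA was 0.0769 to 0.169 with each library left out in turn. The evening list had 0 calls without 2 h replicate 1 or t0 replicate 2, 1 fall without 2 h replicate 2 and 1 rise without t0 replicate 1. PRR5, a pseudo-response regulator of the afternoon, had 9.46 and 83.2 TPM at 2 h, against 16.8 and 20.9 TPM at t0. FKF1, a blue light receptor of flowering, had 1.32 and 37.1 TPM at 2 h, against 35.8 and 46.8 TPM at t0. In both, the 2 h libraries overlapped the t0 libraries. Of the 14 morning genes, 7 were at least 2-fold higher in 2 h replicate 1 than in replicate 2, and of the 13 evening genes, 8 were at least 2-fold higher in replicate 2. The part of this gap in the clock results was not tested.

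Of 23 light signalling genes, 10 rose and 1 fell (median 1.58). BBX16, a B-box factor, had 58.6 and 24.7 TPM at 2 h, against 0.54 and 0.43 TPM at t0. BBX18 had 48.7 and 25.4 TPM at 2 h, against 1.57 and 1.87 TPM at t0. STH, of the same family, had 85.3 and 26.3 TPM at 2 h, against 1.68 and 2.76 TPM at t0. As in the morning clock, 2 h replicate 1 was well above replicate 2 in all 3. The adjusted p of BBX16 was 0.0523 to 0.14 with each library left out in turn. That of STH was 0.0578 to 0.219 with each library left out in turn and that of BBX18 was 0.113 without 2 h replicate 1, 0.0655 without t0 replicate 1 and 0.0583 without t0 replicate 2. The phytochrome-interacting factor PIF5, which promotes growth in shade, had 133 and 91.7 TPM at 2 h, against 29.6 and 19.4 TPM at t0 (log2 2.16 ± 0.29, adjusted p = 0.000671). PIF7 had 73.8 and 59.7 TPM at 2 h, against 16.0 and 17.57 TPM at t0 (log2 1.92 ± 0.28, adjusted p = 0.000998). These 2 calls held in each of the 4 fits. PIF1, which represses seed germination and greening, fell to 4.11 and 3.32 TPM at 2 h, against 7.30 and 17.2 TPM at t0 (adjusted p = 0.0678 without 2 h replicate 1, 0.0951 without 2 h replicate 2 and 0.123 without t0 replicate 2). The list had 2 rises without 2 h replicate 1, 5 without 2 h replicate 2, 3 without t0 replicate 1 and 5 without t0 replicate 2.

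Photosynthesis genes split. Of 20 genes for antenna proteins, which hold chlorophyll around the photosystems, 10 rose and 0 fell (median 1.06). Their summed level was 126330 and 129145 TPM at 2 h, against 62278 and 74983 TPM at t0. LHCB2.1, an antenna protein of photosystem II, had 5903 and 5123 TPM at 2 h, against 279 and 508 TPM at t0 (log2 3.86 ± 0.59, adjusted p = 0.00132). LHCB2.2 had 4290.3 and 3664 TPM at 2 h, against 277 and 458 TPM at t0 (log2 3.47 ± 0.65, adjusted p = 0.0039). LHCB3 had 9511 and 9954 TPM at 2 h, against 2207 and 3427 TPM at t0. LHCA4, of the photosystem I antenna, had 8110.0 and 8363 TPM at 2 h, against 2475 and 3517 TPM at t0 (log2 1.48 ± 0.40, adjusted p = 0.0213). The adjusted p of LHCB3 was 0.0877 without 2 h replicate 1, 0.0806 without 2 h replicate 2 and 0.111 without t0 replicate 1. That of LHCA4 was 0.0954 without 2 h replicate 1, 0.0857 without 2 h replicate 2 and 0.119 without t0 replicate 1. The most abundant member, CAB1, did not pass the test, at 27041 and 31738 TPM at 2 h, against 23937 and 24814 TPM at t0, whereas its neighbour CAB2 had 8692 and 6877 TPM at 2 h, against 601 and 1085 TPM at t0 (log2 3.26 ± 0.78, adjusted p = 0.0128; 0.0813 without 2 h replicate 1 and 0.0748 without t0 replicate 1). CAB1, CAB2 and CAB3, and the LHCB2 genes, are near-identical copies that share reads, so their separate levels are uncertain. The calls of LHCB2.1 and LHCB2.2 held in all 4 fits leaving out 1 library, and the list had 2 rises without 2 h replicate 1, 4 without 2 h replicate 2, 2 without t0 replicate 1 and 7 without t0 replicate 2. Rescaled by median ratios it had 7 rises. In wild type, 7 of the 20 genes were at least 2-fold lower at 2 h and 2 at least 2-fold higher, in 1 library per time.

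In contrast to the antenna, 6 of 17 Calvin cycle genes fell and 0 rose (median -0.30), and the list summed to 61607 and 48324 TPM at 2 h, against 73864 and 79067 TPM at t0. CP12-2, a small protein that holds cycle enzymes inactive in the dark, had 282 and 215 TPM at 2 h, against 2404 and 2499.7 TPM at t0 (log2 -3.31 ± 0.37, adjusted p = 0.000214). RBCS1B, a small subunit of Rubisco and 1 of a set of near-identical copies, had 3498 and 2226 TPM at 2 h, against 10975 and 11912 TPM at t0 (log2 -2.03 ± 0.32, adjusted p = 0.00153). These 2 kept their calls in all 4 fits. PRK (phosphoribulokinase), HCEF1 (fructose bisphosphatase), PGK1 (phosphoglycerate kinase) and CP12-1 fell by 0.57 to 0.80 on the log2 scale, and each of these calls ended without 2 h replicate 1, with adjusted p of 0.0758, 0.0634, 0.11 and 0.157. PRK also lost its call without 2 h replicate 2 (0.122) or t0 replicate 2 (0.125), PGK1 in each fit that left out 1 library (0.0532 to 0.11), and CP12-1 without t0 replicate 1 (0.0784) or t0 replicate 2 (0.076). The list had 2 falls without 2 h replicate 1, 4 without 2 h replicate 2, 4 without t0 replicate 1 and 3 without t0 replicate 2. The other Rubisco small subunit gene with a high level, RBCS1A, had 18808 and 16852 TPM at 2 h, against 20269.5 and 22596 TPM at t0.

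**Figure D4:**
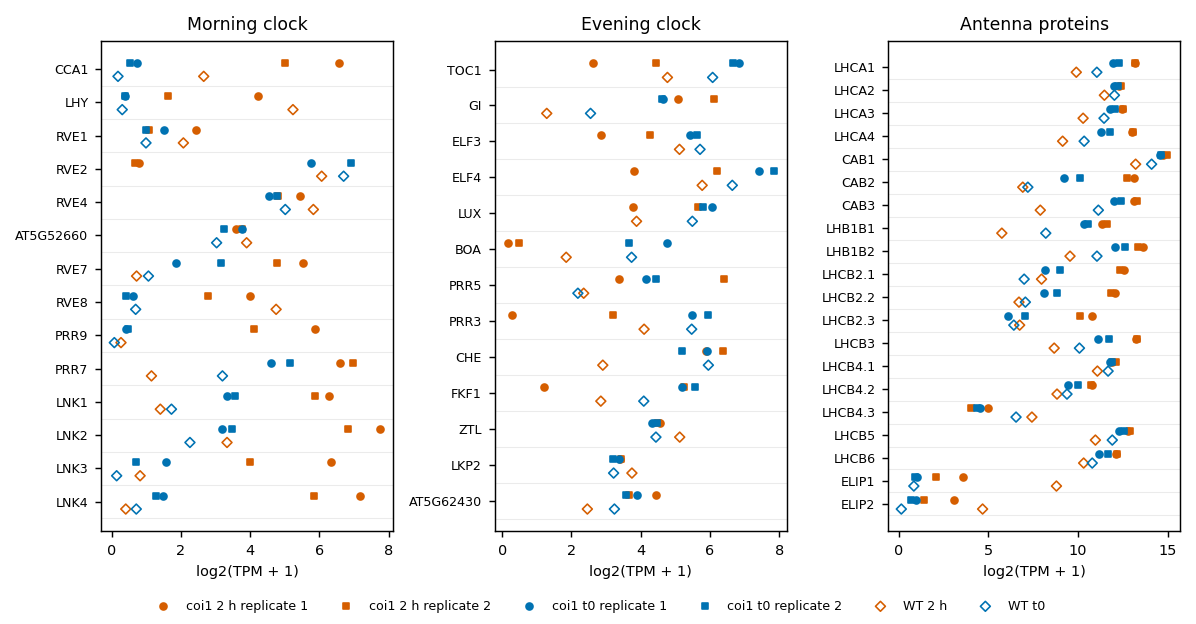
Levels of morning clock, evening clock and antenna protein genes (panels) as log2(TPM + 1) in each coi1 library at 2 h and at t0 (points) and in the 1 wild-type library per time (diamonds). Morning clock genes such as CCA1 lie higher at 2 h in coi1, TOC1 lies lower, and LHCB2.1 lies higher in both 2 h libraries.

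Genes of chlorophyll synthesis moved both ways: 4 of 17 genes rose and 6 fell (median -0.41). The 4 rises were in HEMA1 (glutamyl-tRNA reductase, the entry step), GUN4 (an activator of magnesium chelatase), CRD1 (a subunit of the cyclase) and CAO (AT1G44446, chlorophyllide a oxygenase, which makes chlorophyll b). HEMA1 had 419.9 and 349 TPM at 2 h, against 86.5 and 65.6 TPM at t0 (log2 2.33 ± 0.53, adjusted p = 0.00997). GUN4 had 541 and 395 TPM at 2 h, against 51.3 and 66.0 TPM at t0. CRD1 had 2403 and 2332 TPM at 2 h, against 555 and 726 TPM at t0 (log2 1.90 ± 0.40, adjusted p = 0.00668). All 3 were several fold higher in both 2 h libraries. The adjusted p of HEMA1 was 0.0698 without 2 h replicate 1 and 0.0569 without t0 replicate 2. That of GUN4 was 0.0647 to 0.126 with each library left out in turn and that of CAO was 0.06 to 0.162 with each library left out in turn. The 6 falls were of 0.41 to 0.89 on the log2 scale, the largest in CHLM, the methyltransferase of the branch, with 199 and 205 TPM at 2 h, against 356 and 393 TPM at t0 (log2 -0.89 ± 0.20, adjusted p = 0.0094; 0.0623 without 2 h replicate 1 and 0.0554 without t0 replicate 2). CRD1 was the 1 gene of the list called in all 4 fits with a library left out. The list had 1 rise and 0 falls without 2 h replicate 1 or without t0 replicate 2, 2 rises and 3 falls without t0 replicate 1, and 2 rises and 6 falls without 2 h replicate 2. Rescaled by median ratios it had 4 rises and 9 falls. Of 6 chlorophyll breakdown genes tested, 1 rose and 1 fell (median 0.02). The rise was in PPH (adjusted p = 0.00624 in limma). NYC1, which starts chlorophyll b breakdown, fell to 79.8 and 127 TPM at 2 h, against 396 and 476 TPM at t0 (log2 -2.10 ± 0.44, adjusted p = 0.00698). Both calls ended without 2 h replicate 1.

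Genes of the jasmonate pathway stood higher at 2 h in the receptor mutant. Of 13 genes of jasmonate synthesis, 5 rose and 0 fell (median 1.23). LOX2, the lipoxygenase that starts the pathway in chloroplasts, had 321 and 452 TPM at 2 h, against 53.3 and 61.7 TPM at t0 (log2 2.71 ± 0.50, adjusted p = 0.00349). AOS, allene oxide synthase, the second step, had 200.2 and 255 TPM at 2 h, against 46.2 and 35.1 TPM at t0 (log2 2.46 ± 0.19, adjusted p = 3.18e-05). AOC1, an allene oxide cyclase, had 48.8 and 40.4 TPM at 2 h, against 0.75 and 0.41 TPM at t0 (log2 4.85 ± 0.33, adjusted p = 1.76e-05); AOC1, AOC2 and AOC3 are adjacent, similar genes, so their separate levels are uncertain. The 3 genes lay far above both t0 libraries and kept their calls with any library left out. LOX6 and ACX1 (a peroxisomal acyl-CoA oxidase) also rose, and both calls ended without 2 h replicate 1, with adjusted p of 0.0773 and 0.0856. OPR3, the reductase that commits the pathway to jasmonate, had 36.7 and 37.4 TPM at 2 h, against 18.3 and 9.95 TPM at t0 and did not pass the test. The t0 replicates lay on either side of the 2 h libraries in LOX4, a lipoxygenase, at 4.21 and 2.28 TPM at 2 h, against 19.8 and 0.63 TPM at t0, and in OPCL1, a ligase of the pathway, at 22.6 and 23.55 TPM at 2 h, against 52.7 and 4.98 TPM at t0.

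Of 10 JAZ repressor genes tested, 5 rose and 0 fell (median 1.27), and these counts were the same with each of the 4 libraries left out. JAZ9 had 91.8 and 116 TPM at 2 h, against 2.37 and 1.99 TPM at t0 (log2 5.04 ± 0.59, adjusted p = 0.00028). JAZ6 had 122 and 82.2 TPM at 2 h, against 7.37 and 6.49 TPM at t0 (log2 3.67 ± 0.20, adjusted p = 1.04e-05). JAZ2 had 46.1 and 47.5 TPM at 2 h, against 15.2 and 16.5 TPM at t0 (log2 1.51 ± 0.12, adjusted p = 4.07e-05). JAZ3 had 11.1 and 11.01 TPM at 2 h, against 2.62 and 2.84 TPM at t0. JAZ10, whose gene responds strongly to jasmonate, had 4.27 and 4.27 TPM at 2 h, against 1.32 and 1.86 TPM at t0. JAZ1 had 24.3 and 20.9 TPM at 2 h, against 27.6 and 0.54 TPM at t0, with the t0 replicates on either side of the 2 h libraries, and did not pass the test. JAZ5 had 1.94 and 0.79 TPM at 2 h, against 0.44 and 0.06 TPM at t0. JAZ7 had 0.19 and 0.07 TPM at 2 h, against 0.06 and 0 TPM at t0; neither passed the test.

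Genes of jasmonate turnover and response followed. Of 7 turnover genes tested, 5 rose and 0 fell (median 1.1). AT5G05600, a jasmonate oxidase gene, had 20.1 and 20.8 TPM at 2 h, against 0.15 and 0.15 TPM at t0 (log2 4.22 ± 0.25, adjusted p = 1.36e-05), and its sister AT2G38240 had 1.02 and 1.69 TPM at 2 h and was listed at 0 in both t0 libraries. CYP94C1, which oxidises jasmonoyl-isoleucine, had 4.74 and 4.27 TPM at 2 h, against 0.96 and 0.42 TPM at t0 (adjusted p = 0.0376, 0.0734 to 0.158 with each library left out in turn). IAR3, an amidohydrolase that cleaves amino acid conjugates, rose, but its call ended without 2 h replicate 1. ST2A, a sulfotransferase of hydroxyjasmonate, also rose (adjusted p = 0.000887 in limma). ST2A passed the filter only with 2 h replicate 2, a library of the group where it was called higher, and could not be fitted without it. Its call is therefore no support for a rise of this list. The list had 3 rises with either 2 h library left out and 4 with either t0 library left out. Of 10 response genes, 5 rose and 0 fell (median 1.01). CORI3, a cystine lyase induced by coronatine, had 166 and 104 TPM at 2 h, against 6.98 and 6.25 TPM at t0 (log2 4.12 ± 0.86, adjusted p = 0.00673; 0.0565 without 2 h replicate 1). VSP1, a vegetative storage protein gene widely used as a jasmonate marker, had 1.35 and 6.06 TPM at 2 h, against 0.27 and 0.26 TPM at t0 (log2 1.69 ± 0.39, adjusted p = 0.0113), and in wild type it had 84.7 TPM at 2 h and 6.56 TPM at t0. The VSP1 levels were low in all 4 coi1 libraries, and the 2 h replicates were more than 4-fold apart. VSP2, CLH1 (a chlorophyllase) and JR1 (a jacalin lectin) also rose, with adjusted p for VSP2 of 0.144 without 2 h replicate 2 and 0.125 without t0 replicate 2, for CLH1 of 0.0684 without 2 h replicate 1, 0.152 without 2 h replicate 2 and 0.184 without t0 replicate 1 and for JR1 of 0.0527 without 2 h replicate 2. PDF1.2, a defensin gene, was at most 0.19 TPM in the 4 libraries. The response list had 3 rises without 2 h replicate 1, 2 without 2 h replicate 2 and 4 with either t0 library left out, and 1 of its calls, VSP1, was made in all 4 fits.

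The aliphatic glucosinolate pathway, which builds methionine-derived defence compounds, rose at most of its steps. Of 17 genes, 12 rose and 0 fell, with a median log2 difference of 1.99, and 9 of those calls were kept in all 4 fits that left out 1 library. In chain elongation, BCAT4, the first aminotransferase, had 8.57 and 4.56 TPM at 2 h, against 0.52 and 0.34 TPM at t0 (log2 2.35 ± 0.37, adjusted p = 0.00144). IPMI1, an isomerase subunit, had 28.1 and 19.9 TPM at 2 h, against 1.05 and 1.72 TPM at t0 (log2 3.38 ± 0.32, adjusted p = 9.52e-05). MAM1, the synthase of the same cycle, had 26.4 and 21.9 TPM at 2 h, against 4.05 and 5.97 TPM at t0, and its call ended without 2 h replicate 1 (adjusted p = 0.0738) or t0 replicate 1 (0.0621). BAT5, which carries the keto acids into plastids, had 9.73 and 7.53 TPM at 2 h, against 0.80 and 1.16 TPM at t0. In core synthesis, CYP79F1 had 19.9 and 14.1 TPM at 2 h, against 0.95 and 1.64 TPM at t0 (log2 2.97 ± 0.39, adjusted p = 0.000554). CYP83A1, the next cytochrome P450, had 52.4 and 50.9 TPM at 2 h, against 9.97 and 14.5 TPM at t0 (log2 2.01 ± 0.23, adjusted p = 0.000261). The groups were separate at every step named. Of the regulators, MYB29 had 11.7 and 11.7 TPM at 2 h, against 2.3 and 3.6 TPM at t0 (log2 1.71 ± 0.21, adjusted p = 0.00037), while MYB28 did not pass the test, at 42.6 and 44.7 TPM at 2 h, against 41.0 and 65.0 TPM at t0. In the 1 wild-type library per time, 16 of the 17 were at least 2-fold higher at 2 h.

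The indole branch, built from tryptophan, had 2 rises among 8 genes, CYP83B1 (adjusted p = 0.0579 to 0.269 with each library left out in turn) and the glucosyltransferase UGT74B1 (0.0781 without 2 h replicate 1 and 0.0549 without t0 replicate 2). A pair of members was far higher in t0 replicate 1 than in t0 replicate 2: MYB51, a regulator of the branch, had 0.99 and 1.37 TPM at 2 h, against 28.4 and 3.70 TPM at t0. CYP81F2, which modifies indole glucosinolates, had 1.21 and 1.14 TPM at 2 h, against 31.6 and 0.43 TPM at t0. This list had 0 rises and 3 falls without t0 replicate 2, 2 rises without t0 replicate 1, 0 calls without 2 h replicate 1 and 1 rise without 2 h replicate 2.

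Among 21 flavonoid genes, 10 rose and 1 fell (median 1.13). FLS1, flavonol synthase, had 41.5 and 42.3 TPM at 2 h, against 2.03 and 2.79 TPM at t0 (log2 3.66 ± 0.64, adjusted p = 0.00267). TT5, chalcone isomerase, had 33.3 and 26.9 TPM at 2 h, against 6.71 and 7.53 TPM at t0 (log2 1.93 ± 0.31, adjusted p = 0.00179). MYB111, a flavonol regulator, had 19.4 and 18.2 TPM at 2 h, against 3.26 and 1.41 TPM at t0 (log2 2.63 ± 0.36, adjusted p = 0.000662). AT1G56650, which encodes the anthocyanin regulator PAP1, had 20.1 and 14.1 TPM at 2 h, against 0.26 and 0.07 TPM at t0 (log2 3.94 ± 0.32, adjusted p = 3.99e-05). These 4 calls held with any library left out. CHS, chalcone synthase, had 113 and 85.9 TPM at 2 h, against 5.17 and 2.27 TPM at t0 (log2 4.47 ± 1.29, adjusted p = 0.0287, 0.0662 to 0.136 with 1 library left out). Of the enzymes that lead to anthocyanins, DFR had 0.18 and 0.15 TPM at 2 h, against 2.53 and 0.27 TPM at t0, and LDOX had 0.82 and 0.64 TPM at 2 h, against 1.99 and 0.40 TPM at t0; neither passed the test. AT4G14090, an anthocyanin glucosyltransferase gene, fell to 2.18 and 3.26 TPM at 2 h, against 4.97 and 6.48 TPM at t0 (adjusted p = 0.2 without 2 h replicate 1 and 0.146 without t0 replicate 2). Without 2 h replicate 1 the list had 4 rises and 0 falls, without 2 h replicate 2 it had 8 and 1, and without t0 replicate 1 or t0 replicate 2 it had 6 and 1. In wild type, all but 1 of the 21 genes were at least 2-fold above t0, with a median of 5.58 on the log2 scale, in 1 library per time.

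Genes that remodel cell walls moved in both directions. Of 20 xyloglucan endotransglucosylase genes, whose products cut and rejoin wall polymers, 7 rose and 0 fell (median 1.35). XTH32 had 165 and 115 TPM at 2 h, against 15.3 and 17.2 TPM at t0 (log2 3.01 ± 0.55, adjusted p = 0.00334). XTH8 had 55.7 and 58.5 TPM at 2 h, against 23.5 and 26.5 TPM at t0 (log2 1.16 ± 0.25, adjusted p = 0.008). XTH15 had 18.4 and 21.8 TPM at 2 h, against 1.83 and 1.11 TPM at t0 (log2 3.11 ± 0.75, adjusted p = 0.0135; 0.0637 without 2 h replicate 1, 0.066 without 2 h replicate 2 and 0.0671 without t0 replicate 2). XTH9 (0.055 to 0.166 with each library left out in turn), XTH33 (0.0536 to 0.158 with each library left out in turn) and XTH19 (0.109 without 2 h replicate 1 and 0.0971 without t0 replicate 2) rose too, the values being adjusted p. XTH32, XTH8 and XTH24 kept their calls in all 4 fits, and the list had 3 rises without 2 h replicate 1, 4 without 2 h replicate 2, 7 without t0 replicate 1 and 3 without t0 replicate 2. Of 11 expansin genes, 5 fell and 2 rose (median -0.64). EXPA11 had 4.14 and 10.6 TPM at 2 h, against 57.3 and 69.4 TPM at t0 (log2 -3.05 ± 0.41, adjusted p = 0.000655). EXPA3 had 7.24 and 7.92 TPM at 2 h, against 23.58 and 33.2 TPM at t0. EXPA1, the most abundant expansin at t0, had 68.9 and 50.01 TPM at 2 h, against 174 and 212 TPM at t0 (log2 -1.69 ± 0.42, adjusted p = 0.0154), with adjusted p = 0.0927 without 2 h replicate 2 and 0.0766 without t0 replicate 2. On the higher side, EXPA16 had 165 and 117 TPM at 2 h, against 17.5 and 1.93 TPM at t0 (log2 4.25 ± 0.72, adjusted p = 0.00232). EXPA4 had 42.7 and 43.8 TPM at 2 h, against 20.3 and 15.2 TPM at t0. EXPA16 and EXPA4 kept their calls in all 4 fits, as did EXPA3, EXPA8 and EXPA11 on the lower side; EXPA15 also fell (adjusted p = 0.0873 without 2 h replicate 1 and 0.0522 without t0 replicate 1).

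Of 16 cuticular wax genes, 7 rose and 0 fell (median 0.55). CER1, which makes the alkanes of leaf wax, had 113 and 29.5 TPM at 2 h, against 0.90 and 1.97 TPM at t0 (log2 4.63 ± 0.61, adjusted p = 0.000564). WSD1, a wax ester synthase, had 7.32 and 2.11 TPM at 2 h and was listed at 0 in both t0 libraries (adjusted p = 0.00408). CER1 and WSD1 were more than 3-fold higher in 2 h replicate 1 than in replicate 2, and both libraries were above t0. CER2, which extends wax chains, had 112 and 95.2 TPM at 2 h, against 34.6 and 35.2 TPM at t0 (log2 1.54 ± 0.17, adjusted p = 0.000241). LTPG1, a lipid transfer protein of the cuticle, had 795 and 691 TPM at 2 h, against 384 and 192 TPM at t0 (log2 1.45 ± 0.25, adjusted p = 0.0026). These 4 calls held in each fit leaving out 1 library. CER3 (adjusted p = 0.139 without 2 h replicate 1, 0.0749 without t0 replicate 1 and 0.0532 without t0 replicate 2), CER6 (0.0609 to 0.216 with each library left out in turn) and CER10 (0.0755 to 0.269 with each library left out in turn), further enzymes of the pathway, rose as well. The list had 4 rises without 2 h replicate 1, 6 without 2 h replicate 2, 5 without t0 replicate 1, and 5 rises and 3 falls without t0 replicate 2. The epidermis markers LTP1 and ATML1 were also higher at 2 h, as given above, and their part in the wax result was not tested.

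Other hormone genes followed. Of 12 gibberellin genes, 4 rose and 2 fell (median 0.87). GA20OX1 and GA3OX1, the last enzymes of gibberellin synthesis, had 7.75 and 6.75 TPM and 26.2 and 15.4 TPM at 2 h, against 0.37 and 1.16 TPM and 3.04 and 1.47 TPM at t0 (log2 2.26 ± 0.37 and 2.74 ± 0.45, adjusted p = 0.00187 and 0.00187). GA2OX8, which inactivates gibberellin (adjusted p = 0.182 without 2 h replicate 2 and 0.163 without t0 replicate 2), and the receptor GID1C (0.215 without 2 h replicate 2, 0.141 without t0 replicate 1 and 0.0601 without t0 replicate 2) were the other rises. GASA4, a target of gibberellin like GASA6, fell to 68.2 and 119 TPM at 2 h, against 349 and 423 TPM at t0 (log2 -2.08 ± 0.45, adjusted p = 0.00785; 0.0764 without 2 h replicate 1). The list had 2 rises and 2 falls without 2 h replicate 2, 2 rises and 3 falls without t0 replicate 2, and 4 rises and 1 fall without 2 h replicate 1.

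Of 8 auxin carrier genes, 3 fell and 0 rose, and the same counts were found with each library left out. The 3 were importers: AUX1, with 15.8 and 15.2 TPM at 2 h, against 36.8 and 54.4 TPM at t0 (log2 -1.47 ± 0.21, adjusted p = 0.000899), LAX1, with 10.2 and 15.2 TPM at 2 h, against 37.3 and 33.6 TPM at t0 (log2 -1.43 ± 0.16, adjusted p = 0.000201), and LAX3, with 0.92 and 0.94 TPM at 2 h, against 2.87 and 3.07 TPM at t0. LAX2 and the 4 PIN exporter genes did not pass the test. Auxin and tryptophan synthesis had 5 rises and 1 fall among 14 genes, among them YUC8, a flavin monooxygenase of auxin synthesis, with 4.92 and 3.42 TPM at 2 h, against 1.27 and 1.22 TPM at t0 (log2 1.19 ± 0.22, adjusted p = 0.00373). YUC8 alone of these kept its call in all 4 fits. The list had 1 rise without 2 h replicate 1 or t0 replicate 1, 3 rises without 2 h replicate 2, and 2 rises and 1 fall without t0 replicate 2. Among 18 auxin response genes, 1 rose and 2 fell, and leaving out t0 replicate 1 gave 5 and 2, leaving out 2 h replicate 1 gave 0 and 0, and leaving out either second replicate gave 0 and 1.

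Of 8 type-A response regulators of cytokinin signalling, 4 fell and 0 rose (median -0.65). ARR8 had 5.53 and 5.15 TPM at 2 h, against 16.5 and 16.5 TPM at t0 (log2 -1.47 ± 0.30, adjusted p = 0.00611). ARR5 had 2.49 and 2.35 TPM at 2 h, against 26.8 and 4.32 TPM at t0, with the t0 replicates more than 6-fold apart (adjusted p = 0.154 without 2 h replicate 1, 0.141 without 2 h replicate 2 and 0.217 without t0 replicate 1). Without any 1 of those 3 libraries the list had 1 fall. Of 12 salicylic acid genes, 2 rose and 1 fell. LURP1, a defence gene that responds late to an oomycete, had 0.26 and 0.28 TPM at 2 h, against 49.7 and 34.4 TPM at t0 (log2 -5.06 ± 0.87, adjusted p = 0.00239). PR5, a thaumatin-like pathogenesis protein gene, had 56.0 and 56.2 TPM at 2 h, against 9.45 and 5.83 TPM at t0 (log2 2.76 ± 0.43, adjusted p = 0.00141). EDS5, a chloroplast transporter of the salicylic acid pathway, had 7.59 and 5.83 TPM at 2 h, against 1.76 and 0.60 TPM at t0. Those 3 calls held in all 4 fits, and without t0 replicate 2 the list had 2 rises and 5 falls.

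The remaining lists held few calls. Abscisic acid genes had 3 rises among 15, which became 0 without 2 h replicate 1 and 3 rises with 5 falls without t0 replicate 2. ABA1, zeaxanthin epoxidase, had 307 and 216 TPM at 2 h, against 44.1 and 54.3 TPM at t0 (adjusted p = 0.0992 without 2 h replicate 1 and 0.0666 without t0 replicate 1). Ethylene genes had 3 rises and 1 fall among 14, nitrogen assimilation genes 2 and 1 among 10 (1 and 3 without t0 replicate 2, 1 and 1 in the other fits with a library left out), and heat shock genes 2 and 0 among 11, the last with 0 rises in each fit that left out 1 library, and 1 fall without t0 replicate 2. Ethylene had 0 calls without 2 h replicate 1 and 1 rise and 2 falls without t0 replicate 2. Drought and cold protection genes had 2 rises among 14: LEA3 and RD22, a dehydration-responsive gene with 1179 and 826 TPM at 2 h, against 166 and 110.2 TPM at t0 (log2 2.86 ± 0.30, adjusted p = 0.000155). This list had 1 rise without 2 h replicate 1, 4 without t0 replicate 1, and 1 rise and 1 fall without t0 replicate 2. COR15A, a chloroplast cold-protection gene, had 3395 and 3348 TPM at 2 h, against 440.3 and 513 TPM at t0. It did not pass the test (limma, adjusted p = 0.0935), whose spread is pooled over all coi1 times, although the groups lay apart. In limma, cell cycle genes had 0 calls among 23, with 5 at an unadjusted p under 0.05, and root founder factors 0 among the 3 tested of 13, with 0 at an unadjusted p under 0.05. Brassinosteroid metabolism had 1 fall, of the synthesis gene CPD, among 8 (adjusted p = 0.0762 without 2 h replicate 1, 0.167 without 2 h replicate 2 and 0.205 without t0 replicate 2). Of the WIND factors, which promote callus at wounds, AT1G22190 (WIND2) was called lower, at 7.92 and 7.19 TPM at 2 h, against 87.9 and 13.2 TPM at t0, with adjusted p = 0.131 without 2 h replicate 1, 0.129 without 2 h replicate 2 and 0.111 without t0 replicate 1. Of 7 commonly used reference genes, 3 were called: ACT2 and ACT7 (actins) and GAPC1 (a cytosolic dehydrogenase of glycolysis). The call of ACT7 ended (0.0637 without 2 h replicate 1, 0.0531 without 2 h replicate 2 and 0.0723 without t0 replicate 2, adjusted p). ACT2 had 338 and 345 TPM at 2 h, against 548 and 507 TPM at t0. GAPC1 had 438 and 420.0 TPM at 2 h, against 245 and 233 TPM at t0.

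The 2 h blades were also placed between the neighbouring times. Relative to 1 h, 2134 genes were higher at 2 h (11%) and 498 lower (2.58%), 13.6% in all. With the libraries rescaled by their median ratio, these counts were 1026 and 826, and the median log2 difference of all genes was then -0.02 in place of 0.13. Relative to 2 h, 722 genes were higher at 4 h (3.74%) and 670 lower (3.47%), 7.2% in all, and rescaled they were 1045 and 535, with the median at 0.01 in place of -0.06. The counts for 2 h against 1 h were 634, 595, 876 and 1192 without 2 h replicate 1, 2 h replicate 2, 1 h replicate 1 and 1 h replicate 2. For 4 h against 2 h they were 141, 57, 180 and 317 without 4 h replicate 1, 4 h replicate 2, 2 h replicate 1 and 2 h replicate 2. The comparisons share the 2 h libraries, so they are not independent of each other. The list counts for these comparisons, given next, were examined neither with a library left out nor after rescaling.

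Ribosome biogenesis genes were lowest at 1 h: 13 of 15 rose at 2 h relative to 1 h and 0 fell (median 1.74), whereas 1 of 15 rose relative to t0 (median 0.27). NUC-L1, nucleolin, had 251 and 266 TPM at t0, 98.0 and 138 TPM at 1 h, 389.5 and 394 TPM at 2 h and 595 and 592 TPM at 4 h. NOP56, a protein of ribosomal RNA methylation, had 62.6 and 72.1 TPM at t0, 16.0 and 18.6 TPM at 1 h, 72.9 and 69.7 TPM at 2 h and 167 and 171 TPM at 4 h. All 15 genes had their lowest mean of these 4 times at 1 h.

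Wax and gibberellin genes had another course. CER1 had 0.90 and 1.97 TPM at t0, 48.3 and 22.0 TPM at 1 h, 113 and 29.5 TPM at 2 h and 4.95 and 3.99 TPM at 4 h, and CER2 had 34.6 and 35.2 TPM at t0, 204 and 159 TPM at 1 h, 112 and 95.2 TPM at 2 h and 44.1 and 39.3 TPM at 4 h. Of the 16 wax genes, 6 fell at 4 h relative to 2 h and 0 rose. GA3OX1 had 3.04 and 1.47 TPM at t0, 2.58 and 0.43 TPM at 1 h, 26.2 and 15.4 TPM at 2 h and 5.59 and 3.76 TPM at 4 h, and GA20OX1 had 0.37 and 1.16 TPM at t0, 0.08 and 0.12 TPM at 1 h, 7.75 and 6.75 TPM at 2 h and 2.26 and 1.76 TPM at 4 h. The 2 h level of both gibberellin genes was higher than at each neighbouring time and was called so (for GA3OX1 and GA20OX1, adjusted p = 0.00314 and 0.00234 for 2 h relative to 1 h, and 0.0314 and 0.0421 for 4 h relative to 2 h). Of these calls, only that of GA3OX1 relative to 1 h was examined with a library left out. JAZ genes had 0 rises and 2 falls at 2 h relative to 1 h, and 0 rises and 3 falls at 4 h relative to 2 h; JAZ6 had 148 and 153 TPM at 1 h, 122 and 82.2 TPM at 2 h and 38.5 and 36.1 TPM at 4 h.

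**Figure D5:**
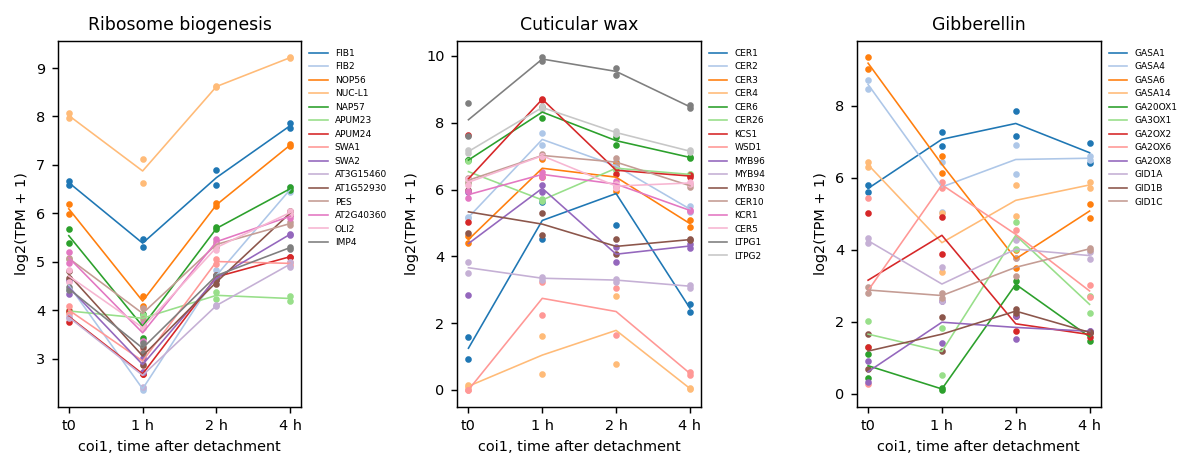
Levels of ribosome biogenesis, wax and gibberellin genes as log2(TPM + 1) at t0, 1 h, 2 h and 4 h in coi1 blades (points, libraries; lines, means of the 2 libraries). Ribosome biogenesis genes are lowest at 1 h, and GA3OX1 is highest at 2 h, at 26.2 and 15.4 TPM.

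The largest differences at 2 h relative to 1 h were in AT5G59895, an uncharacterised protein gene, with 10.6 and 19.8 TPM at 2 h and none listed at 1 h or 4 h, and in BBX14, a B-box factor, with 88.7 and 126 TPM at 2 h, against 6.56 and 9.31 TPM at 1 h (log2 3.6). XTH31 followed, with 112 and 130.4 TPM at 2 h, against 19.1 and 7.22 TPM at 1 h. On the lower side, EXLA1, an expansin-like gene, had 39.5 and 45.1 TPM at 2 h, against 400.4 and 568 TPM at 1 h, XTH19 had 5.47 and 3.94 TPM at 2 h, against 47.8 and 69.8 TPM at 1 h, and EXO, a growth gene known from brassinosteroid response, had 42.7 and 46.3 TPM at 2 h, against 293 and 583 TPM at 1 h. AT4G30470, of the Rossmann-fold dehydrogenase superfamily, had 38.0 and 23.3 TPM at 2 h, against 308 and 235 TPM at 1 h. AT5G59895 passed the filter through the 2 h libraries alone. It could not be fitted when either was left out, so the fits that left out a library do not check its call. The calls of BBX14, XTH31, XTH19 and GA3OX1 held in all 4 fits with a library left out, that of EXO ended in each of them (adjusted p 0.0888 to 0.18), that of EXLA1 ended without 1 h replicate 2 (0.0547), 2 h replicate 1 (0.0631) and 2 h replicate 2 (0.0564), and that of AT4G30470 ended without 1 h replicate 1 (0.058) and 2 h replicate 2 (0.0713).

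At 4 h relative to 2 h, AT4G12500, a lipid transfer-like protein gene, had 22.0 and 23.1 TPM at 4 h, against 1.19 and 0.99 TPM at 2 h, and SCA3, an organelle RNA polymerase gene, had 41.7 and 40.1 TPM at 4 h, against 3.95 and 5.21 TPM at 2 h. EMB2729, of the alpha-amylase family, had 16.3 and 16.8 TPM at 4 h, against 0.78 and 1.06 TPM at 2 h. These 3 calls held in all 4 fits that left out 1 library. The similar AT4G12490 had 20.9 and 23.9 TPM at 4 h, against 2.33 and 1.28 TPM at 2 h. XTH15 had 0.65 and 0.72 TPM at 4 h, against 18.4 and 21.8 TPM at 2 h, and AT2G30766 had 0.45 and 0.79 TPM at 4 h, against 12.6 and 17.3 TPM at 2 h. The calls of AT4G12490 (adjusted p 0.0792 to 0.131), XTH15 (0.107 to 0.14) and AT2G30766 (0.0604 to 0.0806) ended in each fit that left out 1 library. The fall of CER1 at 4 h ended without 2 h replicate 1 (0.0876), 4 h replicate 1 (0.0765) and 4 h replicate 2 (0.111).

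Wild-type blades were placed beside the calls without a test, as they had 1 library per time and were normalised in a separate table. Of the 1264 genes that rose at least 2-fold in coi1, 592 were at least 2-fold higher at 2 h in wild type, 42 at least 2-fold lower and 630 within 2-fold (median log2 difference 0.908). Of the 1156 that fell at least 2-fold in coi1, 364 were at least 2-fold lower at 2 h in wild type, 13 at least 2-fold higher and 779 within 2-fold (median -0.604). Over all genes tested, 9.16% were at least 2-fold higher at 2 h in wild type and 6.27% lower. GPT2 had 646 TPM at 2 h and 0.27 TPM at t0 in wild type and GBSS1 had 1109 TPM at 2 h and 0.63 TPM at t0, both in the direction seen in coi1. GASA6 had 0.12 TPM at 2 h and 648 TPM at t0. AT2G33830 had 2.42 TPM at 2 h and 433 TPM at t0, also in that direction. RVE2, in contrast, had 66.0 TPM at 2 h and 103 TPM at t0. LNK4 had 0.32 TPM at 2 h and 0.63 TPM at t0. Starvation genes had a median wild-type difference of -1.57, JAZ genes 0.85 and evening clock genes -1.24. Antenna genes had -0.58, against 1.06 in coi1. Genotype and clock phase cannot be told apart in these differences.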

How the data were processed

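RNA-seq libraries of detached coi1 leaf blades at 8 times after cutting (2 libraries per time) were analysed, with 8 wild-type libraries beside them. The authors deposited TPM values (transcript shares corrected for transcript length and scaled to 1 total in every library), in 1 table per genotype with 37686 loci, rounded to 2 decimals. The submitters' processing notes name Trim Galore 0.5.0, STAR 2.7.2b, RSEM 1.3.2 and the TAIR10 build, without the role or settings of each. TPM keep no sequencing depth, so precision was read from the replicates alone. In the wild-type table, 8 columns matched no sample used here and were not read. The 2 tables were not tested against each other.

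The deposited TPM values were taken as log2(TPM + 1), and 19323 genes that reached 1 TPM in 2 or more of the 16 coi1 libraries were fitted with limma 3.58.1 (R 4.3.3; empirical Bayes with a mean-variance trend, 8 time groups, 8 residual degrees of freedom). Two-sided p-values were adjusted over all genes tested by the method of Benjamini and Hochberg, and genes with an adjusted p under 0.05 are those called higher or lower. The contrasts were 2 h minus t0, 2 h minus 1 h and 4 h minus 2 h. The fit was run on simulated data that gave each gene the same spread at every time. Such data do not hold the unequal replicate gaps seen here, so they do not check the calls against those gaps. Tables and figures were made with Python 3.11.15, pandas 2.3.3 and matplotlib 3.10.9.

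Gene names and promoters came from RefSeq (TAIR10.1), which matched 37390 loci by locus tag. The promoter coordinates are those of TAIR10.1. The 47 gene lists held 645 memberships (639 loci), of which 584 were tested, and 615 were matched by symbol and 30 by locus alone. The members of the lists and the comparisons were chosen with earlier results of these data known, so the lists are no independent evidence of a direction. Genes were named by rule. They were the 12 with the largest called difference in each direction among nuclear protein-coding genes that averaged at least 10 TPM at 2 h or t0 and whose groups did not overlap, 4 in each direction for each neighbouring contrast, up to 4 called members with the largest difference per list, members that complete a pathway, and COI1. Alternatives were a pseudocount of 0.1, no filter, a filter at 5 TPM, rescaling by median ratios, no trend, a block for the replicate number, a fit of the 4 libraries of a contrast alone, and leaving out each library.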

Additional observations from a re-analysis of the deposited data

Results flagged for a closer look

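Among the named genes called in coi1, 11 moved at least 2-fold one way in coi1, with groups that did not overlap, and at least 2-fold the other way in wild type. Over all genes called at that size there were 42 of 1264 that rose and 13 of 1156 that fell. Wild type had 1 library per time in a separately normalised table, so the difference between the genotypes was not tested. Some clock genes also stood apart between the genotypes at 2 h. CCA1 had 94.4 and 30.9 TPM in coi1 and 5.3 TPM in wild type. RVE2 had 0.73 and 0.59 TPM in coi1 and 66.0 TPM in wild type. Evening clock genes had a median log2 difference of -1.21 in coi1 and -1.24 in wild type. Genotype and clock phase cannot be told apart in the differences that follow. On the log2 scale, 2 h relative to t0, CER1, of wax alkane synthesis, differed by 4.63 in coi1 and -1.71 in wild type, and GA3OX1, of gibberellin synthesis, by 2.74 and -1.17. The clock gene PRR7 differed by 1.93 in coi1 and -2.05 in wild type. Of the wall genes, XTH33 differed by 2.57 in coi1 and -2.32 in wild type, and XTH9 by 1.62 and -1.25.

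Of the antenna genes, LHCB3 differed by 1.82 in coi1 and -1.41 in wild type, LHCA4 by 1.48 and -1.2, LHB1B2 by 1.18 and -1.5, LHCA1 by 1.08 and -1.14, and LHB1B1 by 1.03 and -2.45. BGLU23 was the 1 gene of the 11 that was lower in coi1, at -1.05, and higher in wild type, at 2.3. The coi1 calls of XTH33, XTH9, LHCA1 and LHB1B1 ended in each of the 4 fits that left out 1 library. Those of LHCB3, LHCA4 and LHB1B2 (adjusted p 0.184, 0.0829 and 0.194 for LHB1B2) ended without 2 h replicate 1, 2 h replicate 2 or t0 replicate 1.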

How the results depend on the processing

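For 2 h minus t0 in coi1, 4941 genes were called, 4301 to 5110 under the settings that kept all libraries, and 3913 in a fit of the 4 libraries alone. The count fell to 2221 without 2 h replicate 1 and was at most 3478 with 1 library left out (t0 replicate 1). Among list members, 203 were called, 174 to 208 under other settings and 89 to 173 with 1 library left out. For 2 h minus 1 h the count was 2632, and 595 to 1192 with 1 library left out. For 4 h minus 2 h it was 1392, 57 to 317 with 1 library left out, and 5200 in a fit of those 4 libraries alone, which has 2 residual degrees of freedom in place of 8. The cause of these shifts was not tested. None of the called genes that were checked reversed. Genes named without a call, such as TCH3 and TCH4, were not part of that check. The 2 h levels of TCH3 and TCH4 lay between the t0 replicates. The counts of several lists reversed, as given beside them. Wound factors (3 rises, 0 falls) had 1 and 13 without t0 replicate 2, indole glucosinolates (2 and 0) had 0 and 3, and touch genes (0 and 1) had 4 and 0 without t0 replicate 1. Of 215 named genes called for 2 h minus t0, 126 lost the call in at least 1 of the 4 fits that left out a library.

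The replicate number was also fitted as a block. It gave 4898 calls for 2 h minus t0, 2512 for 2 h minus 1 h, 1271 for 4 h minus 2 h and 198 list members. The labels do not say that the numbers pair libraries, and with 2 numbers the deviations of same-numbered libraries correlated at 0.125 for t0 and 2 h, 0.504 for 1 h and 2 h and 0.04 for 2 h and 4 h.

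Calls of named genes also ended with no filter (31 calls, among them CCA1 with an adjusted p of 0.0516, TOC1 with 0.0521 and GER3 with 0.0536), with rescaling (10), with the pseudocount of 0.1 (8), with no trend (4), with the filter at 5 TPM (1) and in the fits of 4 libraries alone (50). The block ended 13, EXO among them (0.0503).

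The 2 libraries per time, the gap between the t0 libraries in wound genes and the unknown depth limit each statement. TPM are shares of a fixed total, so gene levels are not independent. Wild-type values have no replicate, and 2982 genes were at least 2-fold different there, or 4029 with a pseudocount of 0.1.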
